A study of Mus musculus with 3 samples.

Results

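Neutrophil lineage cells were the 937 barcodes, of 28903 that passed the quality filters, that carried neutrophil transcripts in cultures grown to make dendritic cells. A barcode stands for 1 droplet and was kept from 1000 UMIs (unique molecular identifiers, 1 per captured RNA molecule) and 500 genes upwards, with mitochondrial UMIs at or under 10%. Members were chosen by measured counts, so the values of these genes in them are a description: a member had at least 10 UMIs of S100a8 and S100a9 together, at least 1 UMI each of at least 2 of Ngp, Camp, Ltf, Retnlg, Mmp8, Lcn2, Csf3r and Cebpe, and at most 1 UMI of Siglech, a surface receptor of plasmacytoid dendritic cells. Wild-type C57BL/6 mouse cells had been differentiated with FLT3L, the growth factor of dendritic cell development, and sequenced as 3 droplet libraries, 1 per condition. The conditions were 50 µM glutamine, 2 mM glutamine with 1 µM DON, and a control medium with 2 mM glutamine; DON, short for 6-diazo-5-oxo-L-norleucine, resembles glutamine and inactivates enzymes that take nitrogen from it. With 1 library per condition no difference between conditions could be tested, and every ratio describes these libraries. Intervals are exact 95% intervals (Poisson for levels, Clopper-Pearson for shares) and cover counting error only.

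Neutrophils pass from promyelocytes through myelocytes and metamyelocytes to band and segmented cells, and they fill their granules in sequence. Azurophil granule proteases come first, specific granule proteins such as lactoferrin next, gelatinase granule proteins after them, and the chemokine receptor CXCR2 last. C/EBPε, the product of Cebpe, is the transcription factor needed for specific granule genes. S100A8 and S100A9 pair as calprotectin, which makes up much of the neutrophil cytosol. Neutrophils are not the product an FLT3L culture is set up to make.

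The 50 µM glutamine library held 337 members, which was 3.49% of its 9649 passing barcodes (3.14% to 3.88%). The DON library held 316 members, 3.56% of 8887 (3.18% to 3.96%). The control library held 284, 2.74% of 10367 (2.43% to 3.07%). Both treated shares were above the control share, with counting intervals that did not overlap it, and the control share was the lowest under every alternative rule for membership that was run. With S100a8 and S100a9 required to reach 10% of a cell's UMIs, the shares were 2.72% (2.40% to 3.06%) with 50 µM glutamine, 3.04% (2.69% to 3.42%) with DON and 2.30% (2.02% to 2.60%) in control, and the 50 µM and control intervals then overlapped.

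**Figure D1:**
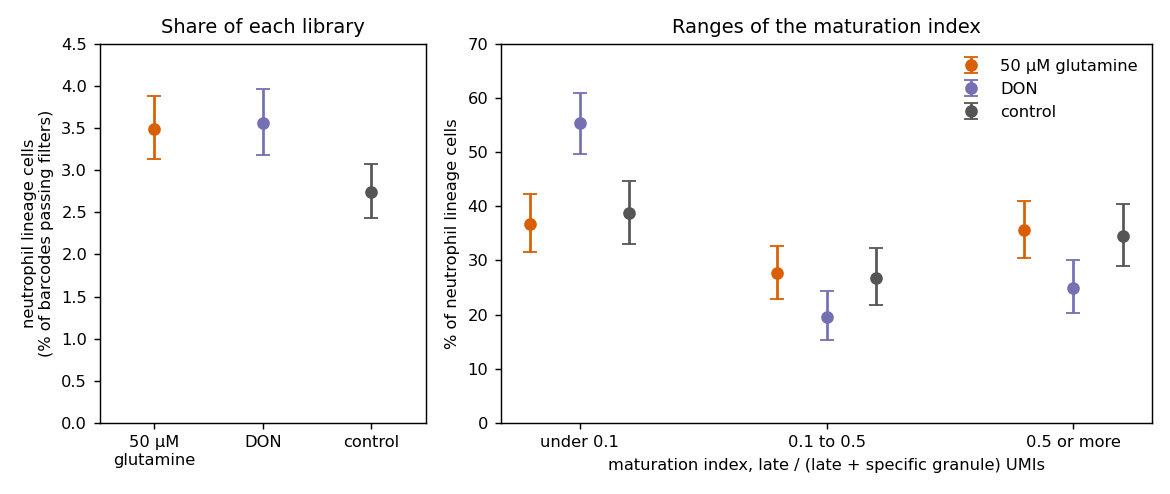
Left, neutrophil lineage cells as a percentage of barcodes passing the filters; right, the percentage of these cells in 3 ranges of the maturation index, by library (50 µM glutamine orange, DON purple, control grey; bars, exact 95% binomial intervals). The DON library stands above the other libraries in the lowest range, at 55.4% of its cells.

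The S100a8 and S100a9 minimum sat in a sparse region. In the DON library 5 members had 10 to 14 UMIs of the pair, and 21 barcodes that met the other conditions had 5 to 9. In the 50 µM library there were 3 and 11 such barcodes, and in control 3 and 9. Members held 85.2% of all S100a8 and S100a9 UMIs of passing barcodes with 50 µM glutamine, 89.5% with DON and 88.4% in control. No member barcode was shared between libraries, while over all barcodes 31 were shared between 50 µM and DON, 22 between 50 µM and control and 20 between DON and control.

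The 10 neutrophil markers are the genes of the rule, so their level in members is fixed by the choice and checks nothing. They summed to 174947 CPM (UMIs per 1e6 UMIs of the members of a library) with 50 µM glutamine, 259737 with DON and 264766 in control, against 578, 664 and 471 CPM in the other cells of the same libraries. The label was checked against markers of other cell types. Eosinophil markers summed to 13.2, 17.7 and 10.8 CPM in the same order of libraries, with Epx, the eosinophil peroxidase gene, at 0 UMIs in all 3. The 9 basophil and mast cell markers summed to 2.99 CPM with 50 µM glutamine, 60.5 with DON and 5.0 in control. The 14 monocyte and macrophage markers, all with a UMI in each library, summed to 1961 CPM with 50 µM glutamine, 1984 with DON and 1674 in control, led by Ly6c2, which neutrophil precursors also carry. The other cells had 1337, 1345 and 1230 CPM of that list. Csf1r, Ccr2, Ms4a6c and F13a1 together had 5 or more UMIs in 13.4%, 12.7% and 8.10% of members. With Ly6c2 added to them the shares were 42.4%, 61.1% and 48.9%.

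Depth and a set of members poor in S100a8 and S100a9 bear on every pooled level. Members had a median of 2724 UMIs with 50 µM glutamine, 4089 with DON and 2796 in control, below the 8036, 8260 and 6965 UMIs of other cells. In most members S100a8 and S100a9 made up 10% or more of the UMIs, but 75 cells of the 50 µM library, 46 of DON and 46 of control fell short of that. As a set these were deep, with medians of 8507, 10182 and 6959 UMIs. Shallow cells were also among them, such as ones of 1073 (50 µM glutamine), 1446 (DON) and 1335 UMIs (control). These S100-poor cells supplied 46.8% of the summed member UMIs with 50 µM glutamine, 25.9% with DON and 26.3% in control. Scrublet, a doublet caller, marked 29.3%, 34.8% and 39.1% of them, against 1.53%, 2.96% and 5.88% of the S100-rich remainder. Antigen presentation and dendritic cell markers summed to 4371, 5865 and 17867 CPM in them, against 1341, 1259 and 1714 CPM in the S100-rich cells. Granulocyte-monocyte progenitor markers summed to 3272, 3501 and 1501 CPM in them, against 1713, 2103 and 1297 CPM. For monocyte and macrophage markers without Ly6c2 the sums were 1046, 1233 and 1013 CPM, against 220, 188 and 267 CPM. The 10% cut uses genes of the rule. What these S100-poor cells are was not tested. Their part in the pooled ratios was not tested, so the leading ratios and the list counts are given with their values in the S100-rich cells alone (262 with 50 µM glutamine, 270 with DON and 238 in control). Of all genes of at least 5 CPM in S100-rich cells, 15.9% stood 1.5-fold or more above control with 50 µM glutamine and 5.35% as far below it, and with DON 9.42% stood above and 5.95% below.

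**Figure D2:**
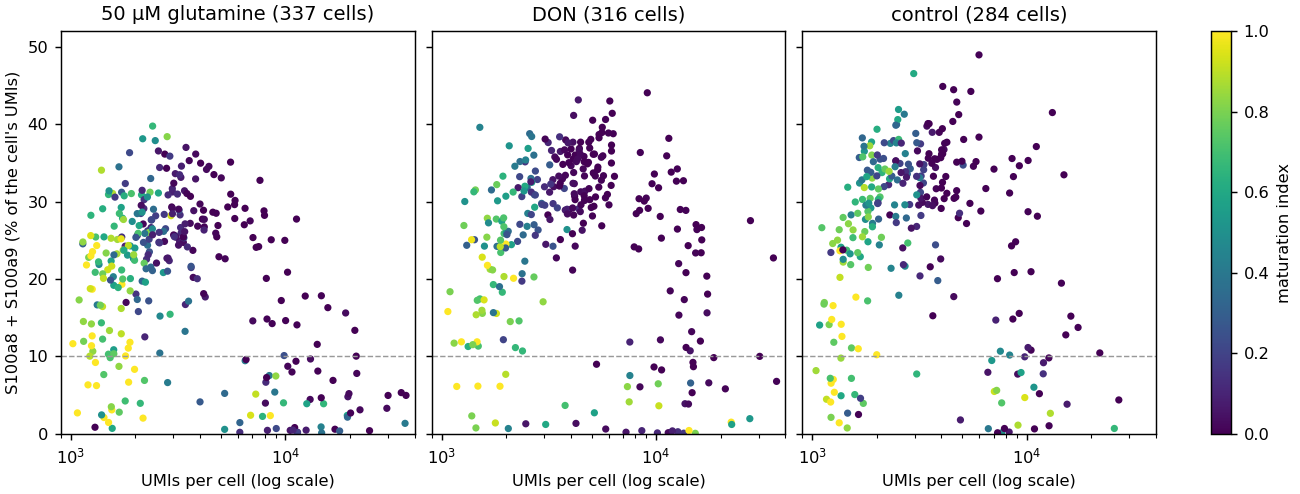
Share of S100a8 plus S100a9 in each cell's UMIs against its total UMIs (log scale), 1 point per neutrophil lineage cell, coloured by the maturation index. The dashed line is at 10%; the cells under it include the deep cells of each library, and dark, low-index cells fill the upper part of the DON panel.

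A maturation index was set for each cell as the UMIs of Retnlg, Mmp8, Mmp9, Cxcr2, Csf3r and Il1b divided by those UMIs plus the UMIs of Ngp, Camp, Ltf, Lcn2 and Chil3. It is a range and not a cell type. Of its genes, Ngp, Camp, Ltf, Lcn2, Retnlg, Mmp8 and Csf3r also belong to the rule that chose the members. Shares by index are thus a description. An index under 0.1 marked 36.8% of the members with 50 µM glutamine (31.6% to 42.2%), 55.4% with DON (49.7% to 60.9%) and 38.7% in control (33.0% to 44.7%). The DON interval lay above the other intervals. The DON share was the highest under every alternative that was run, though each alternative kept index genes of the rule. In the S100-rich cells the share under 0.1 was 57.4% with DON, against 36.6% with 50 µM glutamine and 40.3% in control. At the other end an index of 0.5 or more marked 35.6% of cells with 50 µM glutamine, 25% with DON and 34.5% in control. Leaving Retnlg out of the index, an alternative chosen after seeing the data, gave 30.9%, 20.9% and 25.4% at this end and 39.5%, 57.0% and 42.3% at the low end. Within 0.02 of the low cut lay 24 cells of the 50 µM library, 8 of DON and 8 of control.

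Depth and azurophil protease levels were both highest at the low end of the index. In control, cells under 0.1 had a median of 4688 UMIs, cells from 0.1 to 0.5 had 2481, and cells of 0.5 or more had 1717. The 4 azurophil proteases, which the index does not use, summed to 3456 CPM with 50 µM glutamine, 2785 with DON and 2098 in control under 0.1, and to 59.6, 162 and 11.5 CPM at 0.5 or more. They were thus concentrated at the low end in each library.

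Over all genes, levels in the members were compared as log2((treated CPM + 5)/(control CPM + 5)), which understates ratios of low genes. With 50 µM glutamine 209 of 5689 genes of at least 20 CPM in either library stood 2-fold or more above control (3.67%) and 43 stood 2-fold or more below it (0.756%). With DON 72 of 5313 genes stood as far above control (1.36%) and 35 as far below it (0.659%). The median log2 ratio over those genes was 0.22 with 50 µM glutamine and 0.05 with DON. In S100-rich cells the counts were 112 higher (2.17%) and 36 lower (0.699%) of 5153 genes with 50 µM glutamine, and 53 higher (1.07%) and 33 lower (0.669%) of 4936 with DON. Scaling by the median of ratios in place of the UMI total would take 0.14 from each 50 µM ratio and 0.03 from each DON ratio.

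Retnlg, which encodes a resistin-like secreted protein of maturing neutrophils and lies at chr16:48872621-48874496 (+ strand, mm10), had the largest ratio of the granule genes listed, in either treatment. It had 686 CPM with 50 µM glutamine (647 to 727), 628 CPM with DON (592 to 665) and 2023 CPM in control (1943 to 2105). Both treated libraries were far below control, with log2 ratios of -1.55 and -1.68, and of -1.17 and -1.75 in the S100-rich cells. Among cells with an index of 0.5 or more it had 2394 CPM with 50 µM glutamine (2217 to 2580), 2040 with DON (1873 to 2217) and 5097 in control (4827 to 5379). From 0.1 to 0.5 the levels were 1086, 2635 and 4604 CPM, and under 0.1 they were 45.0, 37.6 and 99.1 CPM. Control was the highest in each range, though Retnlg also helps to set the ranges. After each cell was thinned to 1000 UMIs, 30.6% of members had a Retnlg UMI with 50 µM glutamine (25.7% to 35.8%), 25.9% with DON (21.2% to 31.2%) and 39.8% in control (34.1% to 45.7%), against 0.0416%, 0.0386% and 0.276% of cells with 5 or more Siglech UMIs, which should lack it. Unthinned, the shares of members were 40.1%, 34.2% and 49.6%.

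The specific granule genes had smaller ratios. Ngp, which encodes a cathelin-related granule protein and lies at chr9:110419747-110423012 (+ strand), had 15618 CPM with 50 µM glutamine, 24169 with DON and 22195 in control. Camp, the cathelicidin gene, had 3121, 4652 and 4533 CPM in these libraries. Ltf, the lactoferrin gene, had 2904, 3279 and 3021 CPM. Ngp and Camp were lower with 50 µM glutamine (log2 ratios -0.51 and -0.54), but in the S100-rich cells these ratios were -0.13 and -0.14, and all DON ratios of the 3 genes lay between 0.04 and 0.12. Lcn2, the siderophore-binding lipocalin, had 7773 CPM with 50 µM glutamine, 8381 with DON and 8547 in control, with log2 ratios of -0.14 and -0.03, and of 0.25 and -0.02 in S100-rich cells. Chil3, a chitinase-like protein gene, had 4771, 6054 and 4476 CPM, the highest in DON. Of the 15 specific granule genes measured with 50 µM glutamine none was at least 1.5-fold higher with 50 µM glutamine (19.7% of all genes of at least 5 CPM were) and 1 was at least 1.5-fold lower (3.2% of all), while of 16 measured with DON none was higher (8.34% of all) and 1, Mmp8, was lower (5.06% of all). Their median log2 ratio was -0.20 with 50 µM glutamine and 0.08 with DON, and -0.03 and 0.08 in the S100-rich cells.

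**Figure D3:**
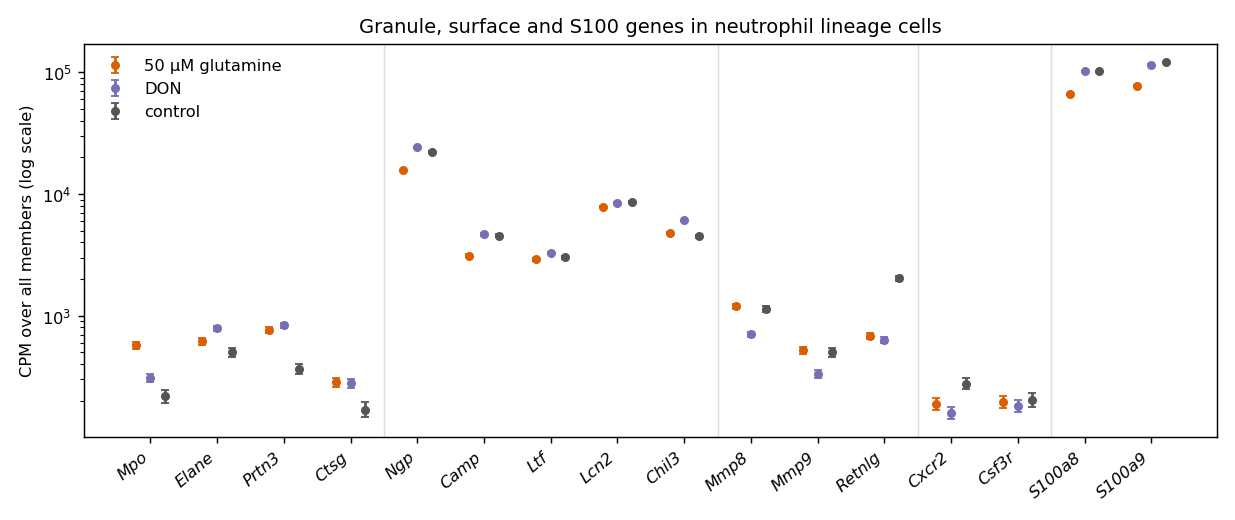
CPM over all neutrophil lineage cells of each library (log scale) for azurophil, specific, gelatinase, surface and S100 genes, separated by grey lines from left to right (50 µM glutamine orange, DON purple, control grey; bars, exact 95% Poisson intervals). Retnlg stands at 686 and 628 CPM in the treated libraries and at 2023 CPM in control, while Lcn2 and Ltf differ far less between libraries.

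The promoter letters of specific and gelatinase granule genes are shown because these genes stood at different levels relative to control. A link between the letters and the levels was not tested. The sequences are the 200 bases before the RefSeq start site on the gene's strand (assembly GRCm38.p6), 5′ to 3′, and RefSeq start sites can differ from the GENCODE gene starts given above. Capitals mark C/EBP-type letters, searched on both strands as TTGCNNAA or TTNNGCAA and as the shorter GCAAT or ATTGC, which can overlap the longer ones. The windows are chr9:110419608-110419807 for Ngp, chr9:111019092-111019291 for Ltf, chr9:7558229-7558428 for Mmp8 and chr16:48872408-48872607 for Retnlg, all on the + strand.
Ngp: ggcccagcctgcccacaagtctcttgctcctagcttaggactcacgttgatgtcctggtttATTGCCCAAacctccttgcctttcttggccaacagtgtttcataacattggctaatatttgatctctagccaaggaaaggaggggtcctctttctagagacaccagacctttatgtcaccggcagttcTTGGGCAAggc
Ltf: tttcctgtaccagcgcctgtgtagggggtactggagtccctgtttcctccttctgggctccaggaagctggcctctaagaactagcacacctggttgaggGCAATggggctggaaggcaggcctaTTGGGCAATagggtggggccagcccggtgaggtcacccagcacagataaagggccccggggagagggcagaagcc
Mmp8: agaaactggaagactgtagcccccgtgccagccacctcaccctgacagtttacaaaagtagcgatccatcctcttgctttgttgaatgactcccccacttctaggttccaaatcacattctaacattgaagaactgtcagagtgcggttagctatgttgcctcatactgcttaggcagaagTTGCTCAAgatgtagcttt
Retnlg: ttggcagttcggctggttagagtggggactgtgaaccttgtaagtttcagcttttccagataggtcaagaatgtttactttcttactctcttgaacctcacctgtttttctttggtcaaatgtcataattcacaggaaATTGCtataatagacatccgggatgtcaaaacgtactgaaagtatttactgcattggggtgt
The longer letters occurred at 2 places in Ngp and at 1 in Ltf and in Mmp8, and the Retnlg window held only the shorter ones. The Camp and Lcn2 windows, not printed, also held only the shorter ones, with DON log2 ratios of 0.04 and -0.03, against -1.68 for Retnlg. The longer letters occur in 7.47% of 32851 such windows of all genes, and the shorter ones in 18.8%. A match describes the letters and not a bound site.

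Among the gelatinase granule genes, Mmp8, the neutrophil collagenase, had 1195 CPM with 50 µM glutamine (1143 to 1248), 701 with DON (664 to 740) and 1139 in control (1079 to 1201). Mmp9, gelatinase B, had 522, 333 and 499 CPM in these libraries. Both were lower with DON only, by pooled log2 ratios of -0.70 and -0.58, and in the S100-rich cells they were also higher with 50 µM glutamine (0.53 and 0.54). The gelatinase list shares Mmp8 with the specific granule list, so its lower DON level is counted in both. Of the 8 gelatinase genes 1, Retnlg, was at least 1.5-fold lower with 50 µM glutamine (3.2% of all genes were). With DON 3 were lower, Mmp8 among them (5.06% of all genes). In S100-rich cells 2 were higher and 1 lower with 50 µM glutamine (15.9% and 5.35% of all genes). With DON 3 were lower there (5.95% of all genes).

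Cxcr2, the receptor that draws mature neutrophils to CXC chemokines, had 189 CPM with 50 µM glutamine (169 to 211), 158 with DON (141 to 178) and 277 in control (248 to 308). Csf3r, the G-CSF receptor, had 196, 181 and 203 CPM, with overlapping counting intervals. In S100-rich cells Cxcr2 had 301 CPM with 50 µM glutamine (266 to 339), 189 with DON (167 to 214) and 311 in control (275 to 350). There the 50 µM interval overlapped that of control, and the DON interval lay below both. Ly6g, the surface antigen used to identify mouse neutrophils, was sparse, with 51, 80 and 75 UMIs, or 30.5, 42.8 and 62.5 CPM, and 55.2, 57.8 and 80.3 CPM in S100-rich cells. Cebpe had 198 CPM with 50 µM glutamine (177 to 220), 369 with DON (342 to 398) and 283 in control (254 to 315), and 296, 477 and 371 CPM in S100-rich cells.

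S100a8 had 65694 CPM with 50 µM glutamine, 101737 with DON and 101753 in control. S100a9 had 77562, 115641 and 121068 CPM. These 2 genes chose the members, and their values are a description. S100a6, a calcium-binding protein gene the rule did not use, had 2558 CPM with 50 µM glutamine (2482 to 2636), 2440 with DON (2370 to 2512) and 4336 in control (4219 to 4455), lower in both treated libraries (log2 ratios -0.76 and -0.83; -0.33 and -0.73 in S100-rich cells).

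Several azurophil granule genes stood higher in both treated libraries but came from few cells. Prtn3, proteinase 3, had 760 CPM with 50 µM glutamine (719 to 803), 834 with DON (793 to 876) and 368 in control (335 to 404). Elane, neutrophil elastase, had 617, 788 and 500 CPM, and in S100-rich cells 617, 785 and 475 CPM. Mpo, myeloperoxidase, had 570, 308 and 218 CPM. Of the Mpo UMIs the 5 richest cells gave 50.4% with 50 µM glutamine, 71.0% with DON and 98.9% in control, where 7 cells had any. In S100-rich cells Mpo had 229, 214 and 211 CPM, with overlapping intervals, while Prtn3 had 483 CPM with 50 µM glutamine, 691 with DON and 329 in control. Ms4a3, a membrane protein gene of granulocyte and monocyte progenitors, had 165 CPM with 50 µM glutamine, 202 with DON and 80.0 in control, and log2 ratios of 0.87 and 1.24 in the S100-rich cells.

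Counting cells also put control lowest. After thinning to 1000 UMIs, a UMI of Mpo, Elane, Prtn3 or Ctsg was found in 12.2% of members with 50 µM glutamine (8.87% to 16.1%), 13.6% with DON (10.0% to 17.9%) and 4.23% in control (2.20% to 7.26%). In Siglech-high cells, of median depth 6407, 7021 and 5681 UMIs, it was found in 3.12%, 1.35% and 1.30%. Without thinning the member shares were 18.7%, 19.0% and 11.6%. Of the 11 azurophil genes 6 were at least 1.5-fold higher in each treated library (19.7% of all genes were with 50 µM glutamine and 8.34% with DON) and none was lower. In S100-rich cells 3 were higher with 50 µM glutamine (15.9% of all genes), and 5 were higher and 1 lower with DON (9.42% and 5.95% of all genes). When members carrying monocyte or MHC class II UMIs were left out, a step that also removes Ly6c2-bearing precursors, the DON log2 ratios of Elane and Ms4a3 were -0.38 and -0.29.

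**Figure D4:**
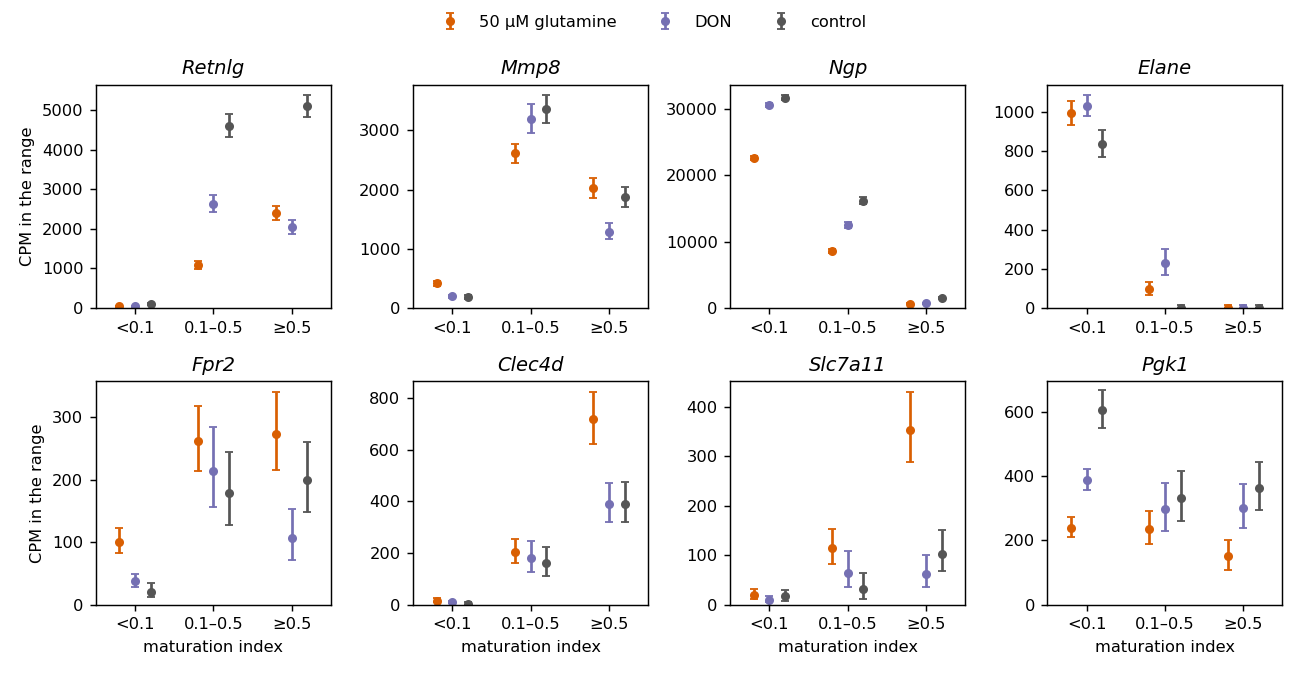
CPM within each range of the maturation index for 8 genes, by library (50 µM glutamine orange, DON purple, control grey; bars, exact 95% Poisson intervals; each vertical axis starts at 0). Retnlg is highest in control in every range, Slc7a11 and Clec4d stand highest with 50 µM glutamine at an index of 0.5 or more, and Pgk1 is lowest with 50 µM glutamine in every range.

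Summed levels of G2/M genes were higher with DON, while shares of cells with UMIs of the list as a whole overlapped between libraries. Of 28 G2/M genes 24 were at least 1.5-fold higher with DON (8.34% of all genes were) and none was lower, with a median log2 ratio of 0.86. In S100-rich cells 15 of 28 were higher with DON (9.42% of all genes), with a median of 0.63. With 50 µM glutamine 7 were higher (19.7% of all genes) and none lower, at a median of 0.31, but in S100-rich cells 1 was higher and 8 were lower (15.9% and 5.35% of all genes), at a median of -0.26. The higher DON values were thus seen in both sets of cells, and the 50 µM median changed sign between them. After thinning to 1000 UMIs, at least 1 UMI of the list was found in 76.0% of members with 50 µM glutamine (71.0% to 80.4%), 71.2% with DON (65.9% to 76.1%) and 73.2% in control (67.7% to 78.3%). At least 3 were found in 26.7% with 50 µM glutamine (22.1% to 31.8%), 29.1% with DON (24.2% to 34.5%) and 23.9% in control (19.1% to 29.3%). The 3 intervals overlapped at each minimum. Unthinned, these shares were 93.8%, 95.6% and 93.3% for 1 UMI and 64.1%, 70.6% and 72.2% for 3. Hmgb2, a gene of the list, had 1726 CPM with 50 µM glutamine, 2560 with DON and 1668 in control. The whole list summed to 4065, 5947 and 3490 CPM, so its shares and sums lean on Hmgb2. Shares without Hmgb2 were not counted. Cenpf, a kinetochore protein gene, had 83.8 CPM with 50 µM glutamine (70.5 to 98.9), 180 with DON (162 to 201) and 70.8 in control (56.6 to 87.6). Mki67, the Ki-67 gene, had 246, 301 and 136 CPM, and in S100-rich cells 152, 240 and 145 CPM. The CPM of Cenpf and Mki67 stood highest with DON in both sets of cells. After thinning, 10.4% of members had a Mki67 UMI with DON (7.30% to 14.4%) and 3.87% in control (1.95% to 6.82%). With 50 µM glutamine the Mki67 share was 7.12% (4.62% to 10.4%). The DON and control intervals of Mki67 did not overlap. Top2a shares were 10.4% with 50 µM glutamine, 9.49% with DON and 4.93% in control, with overlapping intervals.

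Of 28 S phase genes 20 were at least 1.5-fold higher with 50 µM glutamine (19.7% of all genes) and 12 with DON (8.34%). In S100-rich cells 7 of 27 were higher and 1 lower with 50 µM glutamine (15.9% and 5.35% of all genes). With DON 5 of 27 were higher there (9.42% of all genes) and none lower. The medians of the list were 0.86 and 0.52, and 0.34 and 0.36 in the S100-rich cells. E2f8, a cell cycle repressor of the E2F family, was among the highest with 42.5, 43.3 and 10.8 CPM. Within the range under 0.1 the G2/M list, Hmgb2 included, summed to 5003 CPM with 50 µM glutamine, 6718 with DON and 4571 in control. The other cells also had a higher G2/M median with DON (0.45) and with 50 µM glutamine (0.64), without any gene of the list at least 1.5-fold higher with DON. Without members carrying monocyte or MHC class II UMIs the DON median of the list in members was -0.82.

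Of 13 innate receptor genes 3 were at least 1.5-fold higher with 50 µM glutamine, near the 19.7% of all genes, and none was lower, at a median log2 ratio of 0.37. In S100-rich cells 7 of 12 were higher (15.9% of all genes were), at a median of 0.64, and none was higher with DON in either set. Members of the list that stood below control with 50 µM glutamine were Cd300lf, an inhibitory receptor gene, at -0.47 and Myd88, the adaptor of Toll-like receptors, at -0.27. The formyl peptide receptors, on the surface list, differed from each other: Fpr1 had 71.9 CPM with 50 µM glutamine, 57.8 with DON and 99.1 in control. Fpr2 had 168 CPM with 50 µM glutamine (149 to 189), 68.0 with DON (56.7 to 80.9) and 89.1 in control (73.0 to 108). Clec4d, a C-type lectin receptor, had 180 CPM with 50 µM glutamine (160 to 201), 84.6 with DON (71.9 to 98.8) and 117 in control (98.1 to 138). Cd14, the lipopolysaccharide co-receptor, had 56.9, 16.1 and 18.3 CPM. The 50 µM ratios of Fpr2, Clec4d and Cd14 were larger in S100-rich cells, at 1.34, 1.22 and 1.79 on the log2 scale, against 0.88, 0.60 and 1.41 pooled. Clec4d stood out at an index of 0.5 or more, with 718 CPM with 50 µM glutamine, 390 with DON and 391 in control.

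Slc7a11, the cystine-glutamate exchanger and a target of both ATF4 and NRF2, had 98.8 CPM with 50 µM glutamine (84.3 to 115), 24.1 with DON (17.6 to 32.2) and 38.3 in control (28.1 to 51.1). Its UMIs lay in 84 cells with 50 µM glutamine, 30 with DON and 30 in control. At an index of 0.5 or more it had 354, 62.6 and 103 CPM. Its log2 ratio with 50 µM glutamine was 1.26 in members and 1.93 in S100-rich cells, against 0.14 in the other cells. Tgm2, transglutaminase 2, had 70.1 CPM with 50 µM glutamine (57.9 to 84.0), 25.2 with DON (18.5 to 33.4) and 8.33 in control (3.99 to 15.3), in 71, 37 and 10 cells. It was higher in both treated libraries, more so with 50 µM glutamine, and the log2 ratios in S100-rich cells were 2.76 and 1.00. The differences between members and other cells were not tested.

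Of the amino acid response, 12 of 23 measured ATF4 target genes were at least 1.5-fold higher with 50 µM glutamine (19.7% of all genes were) and none was lower, at a median log2 ratio of 0.65. With DON the median was 0.03 over 21 genes. In S100-rich cells 9 of 20 were higher with 50 µM glutamine (15.9% of all genes) and 1 was lower, at a median of 0.34. Asns, asparagine synthetase and a standard target of the response, had 35.3 CPM with 50 µM glutamine, 13.9 with DON and 13.3 in control, from 59, 26 and 16 UMIs. Its log2 ratio with 50 µM glutamine was 1.14 in members, 0.60 in S100-rich cells and 2.88 in other cells, where it had 61.9 CPM with 50 µM glutamine and 4.06 in control. Atf5, another transcription factor of the response, had 36, 10 and 2 UMIs, which is 21.6 CPM (15.1 to 29.8), 5.35 CPM (2.57 to 9.84) and 1.67 CPM (0.202 to 6.02). Phgdh, the first enzyme of serine synthesis, had 86.8, 24.6 and 11.7 CPM, but 31.5, 7.22 and 7.91 CPM in S100-rich cells.

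Of 16 NRF2 targets 5 were at least 1.5-fold higher with 50 µM glutamine (19.7% of all genes were), at a median of 0.36, and the DON median was 0.14. In the S100-rich cells 8 of 16 were higher with 50 µM glutamine (15.9% of all genes), and the medians were 0.56 and 0.08. Genes of glutamine use and transport had medians of 0.50 and 0.18, and of 0.45 and 0.15 in S100-rich cells. Gmps, the GMP synthetase that takes its amide from glutamine, had 56.3 CPM with 50 µM glutamine, 36.4 with DON and 22.5 in control, and 37.2, 25.3 and 14.7 CPM in S100-rich cells.

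Glycolytic genes had negative medians in both treated libraries. Of 20 measured, 8 were at least 1.5-fold lower and 1 higher with 50 µM glutamine (median -0.47; 3.2% of all genes were lower), and 4 were lower and none higher with DON (median -0.30; 5.06% of all genes were lower). In S100-rich cells 6 were lower with 50 µM glutamine (5.35% of all genes) and none higher, and 5 were lower (5.95% of all genes) and 1 higher with DON, at medians of -0.23 and -0.26. Pgk1, phosphoglycerate kinase, had 224 CPM with 50 µM glutamine (202 to 248), 365 with DON (338 to 393) and 503 in control (464 to 545), with nearly the same levels in S100-rich cells (226, 362 and 495 CPM). The 3 libraries had separate intervals in the same order in both sets. Ankrd37, a hypoxia-inducible gene, had 4.19 CPM with 50 µM glutamine (1.69 to 8.64), 11.8 with DON (7.38 to 17.8) and 51.6 in control (39.6 to 66.2), from 7, 22 and 62 UMIs, and 4.5, 9.39 and 47.5 CPM in S100-rich cells.

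Slc2a3, the glucose transporter GLUT3, had 125, 116 and 217 CPM, and in S100-rich cells 194, 144 and 268 CPM. Mif, a cytokine gene with hypoxia response elements, had 160, 269 and 384 CPM, and in S100-rich cells 56.3, 181 and 284 CPM. The other cells had the same order for Pgk1 (180, 362 and 517 CPM) and for Ankrd37 (4.10, 32.5 and 88.2 CPM). Stray RNA was subtracted as 0.5 times the Siglech-high level, with negative levels set to 0. This step also removes what Siglech-high cells express themselves. It gave 0.52 for Ankrd37 and 0.26 for Mif with 50 µM glutamine. The DON ratio of Ankrd37 was then 0, with its control and DON levels both set to 0. The 0.52 thus stands against a control level of 0.

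Of 15 interferon-inducible genes 7 were at least 1.5-fold lower with 50 µM glutamine and 1 was higher (median -0.53; 3.2% of all genes were lower), and 2 were lower with DON (median -0.31; 5.06% of all genes). In S100-rich cells 6 of 15 were lower with 50 µM glutamine (5.35% of all genes) and 2 of 14 with DON (5.95%). The medians there were -0.47 and -0.20. Ifi27l2a had 331 CPM with 50 µM glutamine (304 to 359), 593 with DON (559 to 629) and 919 in control (865 to 975). Rtp4, a receptor transporter gene induced by interferon, had 42.5 CPM (33.2 to 53.6), 53.0 CPM (43.1 to 64.5) and 123 CPM (104 to 145). Both stood lowest with 50 µM glutamine, and the S100-rich log2 ratios were -1.51 and -0.74 for Ifi27l2a and -1.43 and -0.94 for Rtp4. With stray RNA subtracted in the same way as above, both Ifi27l2a ratios were 0, its levels being set to 0. Its level in members was thus at or under 0.5 times that in Siglech-high cells. The same held for Irf7, another gene of the list.

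Among secreted mediators Ccl3, a chemokine for monocytes and neutrophils, had 120 CPM with 50 µM glutamine (104 to 138), 43.9 with DON (34.9 to 54.5) and 65.8 in control (52.1 to 82.0). Ccl6 had 259, 197 and 415 CPM, and in S100-rich cells 383, 204 and 459 CPM. Ccl3 was thus above control with 50 µM glutamine, and Ccl6 below it, most with DON. Il1b, interleukin 1β, had 51.5, 21.4 and 30.0 CPM, and its 5 richest cells gave 59.3%, 80.0% and 63.9% of its UMIs. Scd2, a stearoyl-CoA desaturase gene, had 37.1 CPM with 50 µM glutamine (28.5 to 47.6), 140 with DON (123 to 158) and 127 in control (107 to 148). It was lower with 50 µM glutamine only, and its log2 ratio of -1.64 was -1.81 in the S100-rich cells.

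Several of the largest ratios rested on few cells. With 50 µM glutamine Cxcl10, an interferon-induced chemokine, had 56.9 CPM, against 5.83 in control, but 5 cells gave 98.9% of its UMIs and the S100-rich log2 ratio was 0.49, against 2.51 pooled. Saa3, an acute phase protein gene, had 52.1 CPM with 50 µM glutamine, 26.8 with DON and 5.83 in control, in 11, 4 and 3 cells. Stfa1, a stefin gene, had 94.2 CPM with DON and 37.5 in control, with 88.1% and 82.2% of the UMIs from 5 cells. Cox6a2 and Sox4, which plasmacytoid dendritic cells or progenitors express, had log2 ratios of 3.1 and 2.07 with 50 µM glutamine pooled and of 1.41 and -0.0032 in S100-rich cells.

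MHC class II pathway genes, which belong to antigen-presenting cells, were lower in both treated libraries, 8 of 12 at least 1.5-fold with 50 µM glutamine (median -0.91; 3.2% of all genes) and 9 of 12 with DON (median -0.80; 5.06% of all genes). In S100-rich cells 4 of 12 were lower with 50 µM glutamine (5.35% of all genes) and 2 of 12 with DON (5.95%). The medians there were -0.38 and -0.37. H2-Ab1 had 372 CPM with 50 µM glutamine, 413 with DON and 1015 in control, but 205, 195 and 250 CPM in S100-rich cells. In other cells the medians were -1.25 with 50 µM glutamine and -0.63 with DON. Mitochondrially encoded transcripts had medians of 0.68 with 50 µM glutamine and 0.44 with DON (0.47 and 0.37 in S100-rich cells), and the median mitochondrial share per member was 1.91% with 50 µM glutamine, 1.61% with DON and 1.12% in control. Its part in the other ratios was not tested.

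**Figure D5:**
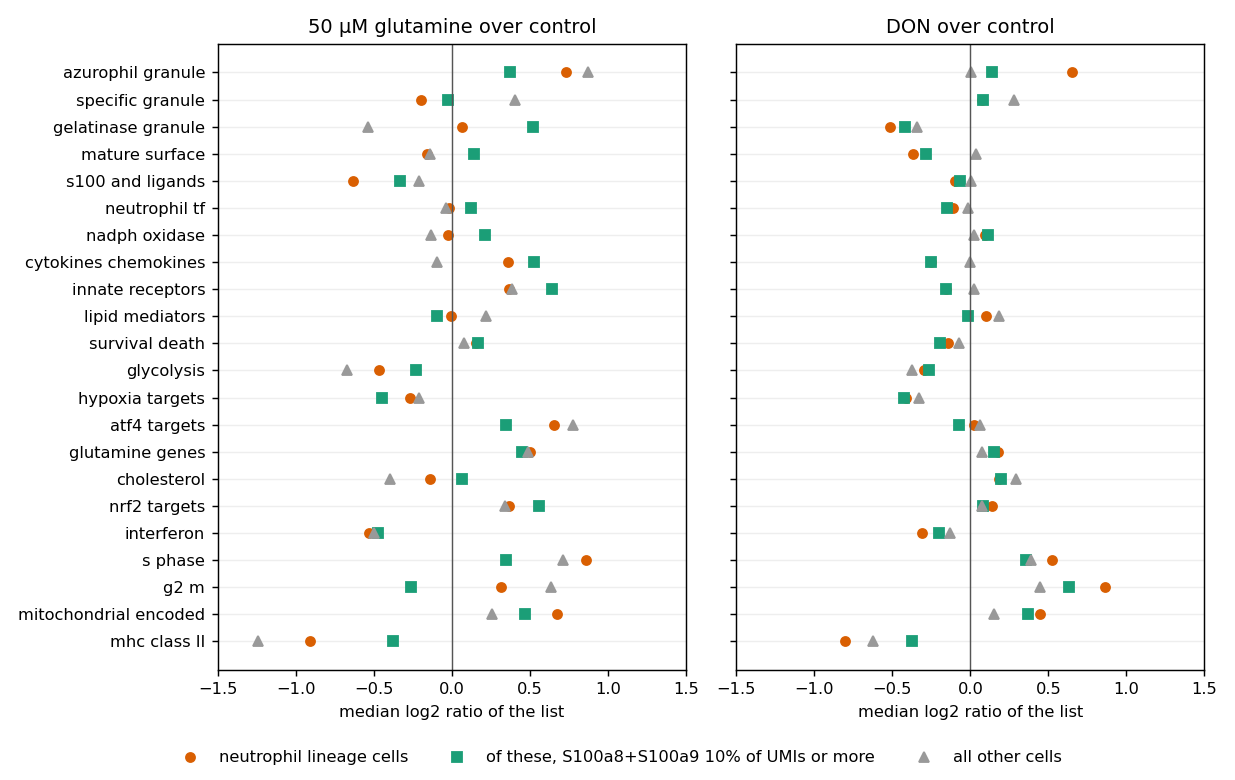
Median log2 ratio to control of each gene list (rows), with 50 µM glutamine left and DON right, in neutrophil lineage cells (orange circles), in those with S100a8 plus S100a9 at 10% of UMIs or more (green squares) and in all other cells (grey triangles). For DON the G2/M list stands furthest above 0 in members, at 0.86, and the MHC class II list furthest below, at -0.80.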

How the data were processed

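The authors deposited 1 matrix of raw UMI counts per library, with barcodes already called as cells; the count of a gene is whole and not normalised. Cell Ranger 6.0.0 stands in the file headers, whereas Cell Ranger 3.1.0 and mm10 are given per the submitters' processing notes; which version made these counts, and the annotation, are not given in the sources used here. Total depth was 92002827 UMIs with 50 µM glutamine (9817 barcodes), 87611658 with DON (8962) and 89340379 in control (10497). Members were picked by the rule in the report, and their UMIs were summed per library and scaled to CPM. Whether cultures came from separate mice is not stated.

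Ratios used a pseudocount of 5 CPM, and 2-fold calls a floor of 20 CPM; list counts used 1.5-fold and 5 CPM. No test between conditions was run. Doublets were kept; Scrublet (scanpy 1.11.5, expected rate 0.08) was run as an alternative and marked 4.97% of passing barcodes with 50 µM glutamine, 5.85% with DON and 8.62% in control. numpy 2.4.6, scipy 1.17.1 and pandas 2.3.3 were used. The sums and ratios were tested on simulated data.

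Genes were named by a rule: per treatment the 8 highest and 8 lowest ratios of genes that reach 50 CPM, up to 3 genes of each list with the largest ratio, and a set of fixed genes. Members, lists, markers and genes were chosen with earlier results of these data known. The requirement of 10% S100a8 and S100a9 and the index without Retnlg were chosen after seeing the data. Other marker lists summed, in members, to 91.0, 126 and 159 CPM for cDC1, 304, 215 and 292 for cDC2, 747, 457 and 599 for mature dendritic cells, 444, 274 and 319 for plasmacytoid dendritic cells, 73.1, 86.2 and 27.5 for progenitors, 59.3, 5.89 and 5.83 for B lineage, 37.7, 31.0 and 22.5 for T, NK and innate lymphoid cells and 26.9, 9.63 and 15.8 for erythroid cells and megakaryocytes (50 µM glutamine, DON, control). In other cells the mature dendritic cell list summed to 470, 586 and 1226 CPM, so members stood above them with 50 µM glutamine. There it summed to 1199 CPM in S100-poor and 349 CPM in S100-rich members. The progenitor list summed to 79.7, 59.8 and 67.5 CPM in other cells, below members with DON. Granulocyte-monocyte progenitor markers summed to 2443, 2465 and 1350 CPM in members, against 383, 157 and 152 CPM in other cells. Antigen presentation and dendritic cell markers summed to 2760, 2451 and 5963 CPM in members, against 5712, 9067 and 16023 CPM in other cells. Gene positions are from GENCODE vM21.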

Additional observations from a re-analysis of the deposited data

Results flagged for a closer look

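In members the specific granule list had a median log2 ratio of -0.20 with 50 µM glutamine over control, and in the other cells of the same libraries it had 0.40. It was picked out because the directions were opposite, and the difference was not tested. With 50 µM glutamine Ngp, Camp, Ltf and Lcn2 had 45.9, 13.2, 7.98 and 20.4 CPM in other cells. Siglech-high cells, which should lack them, had 89.5, 17.1, 15.7 and 43.5 CPM, while Mmp8 had 23.4 and 8.69 CPM. These genes also chose the members, so cells rich in them were mostly taken out of the other cells. The part of stray RNA in the 0.40 was not tested. In the S100-rich members the median was -0.03.

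Bcl2a1b, an anti-apoptotic BCL2 family gene, had a log2 ratio of 0.90 with 50 µM glutamine over control in members and of -0.91 in the other cells, and was picked out for the same reason. This difference was not tested either. In members its UMIs came from 20 cells with 50 µM glutamine and 9 in control, the 5 richest cells gave 72.2% and 84.0% of them, and in S100-rich members the ratio was -0.48.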

How the results depend on the processing

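No paired analysis was possible because each condition had 1 library. Depth limits genes under about 20 CPM, which rest on few UMIs per library, and 1 library cannot show how much cultures differ. Of 26 list medians past 0.20 (log2), 2 kept their direction and size under every alternative run, and 8 changed sign under at least 1; of 146 named gene ratios past 1.5-fold, 50 kept both and 34 changed sign. The cause of the changes below was not tested, beyond what an alternative removes by its construction. Values are in the order 50 µM glutamine, DON and, for shares, control.

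Shares of members were 2.36%, 2.70% and 2.12% with at least 4 of the 8 markers, and 2.91% with at least 3 (50 µM). They were 2.47%, 2.95% and 1.95% with at least 2000 UMIs, 4.18% and 4.20% with at most 5% mitochondrial UMIs, 1.93%, 1.36% and 1.27% without members carrying monocyte or MHC class II UMIs, and 2.72%, 3.04% and 2.30% with S100a8 and S100a9 at 10% of UMIs or more.

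Shares of members at the low and the high index were 44.3% and 22.4% (50 µM), 65.4% and 12.9% (DON) and 45.5% and 24.5% (control) with at least 4 markers, with a high-index share of 30.2% (50 µM) with at least 3. They were 52.8% and 12.7%, 68.4% and 11.3%, and 55.1% and 14.3% with at least 2000 UMIs. They were 18.8% and 56.5%, 23.1% and 53.7%, and 16.7% and 55.3% without members carrying monocyte or MHC class II UMIs. They were 48.4% and 29.7%, 61.7% and 19.9%, and 47.2% and 27.8% with cuts at 0.2 and 0.6. Without Retnlg in the index the control high-index share was 25.4%.

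Genes at least 2-fold higher and lower numbered 495 and 145 (50 µM) and 348 and 235 (DON) without members carrying monocyte or MHC class II UMIs. They numbered 465 and 76, and 200 and 117, with stray RNA subtracted, 71 and 22, and 22 and 15, with a floor of 50 CPM, 389 and 65, and 121 and 64, with no floor, and 38 and 16, and 12 and 11, with a pseudocount of 20 CPM. A pseudocount of 1 CPM gave 344 higher (50 µM), and 121 higher and 56 lower (DON). Removing doublets gave 374 higher (50 µM) and 167 higher (DON). With 50 µM glutamine 118 were higher under median-of-ratios scaling, 112 with S100a8 and S100a9 at 10% or more, and 26 lower with at least 3 markers. With DON 45 were higher with at least 3 markers, 23 lower with an S100 minimum of 5 UMIs, and 22 lower with the same mix of maturation ranges.

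These values had the opposite sign to the reported ones. Without members carrying monocyte or MHC class II UMIs, a step that removes most low-index cells, 50 µM gave 0.056 for the specific granule median, -0.49 for Hist1h1b and -0.16 for Ms4a3. In the same setting DON gave medians of 0.081 (interferon), -0.82 (G2/M) and 0.10 (MHC class II). Its ratios were -0.74 for Bub1, -0.056 for Ccne2, -0.89 for Cenpf, 0.41 for Ciita, -1.88 for E2f8, -0.38 for Elane, -0.081 for Esco2, -2.43 for Hist1h1b, -0.54 for Hist1h2ae, -0.59 for Hmgn2, -1.17 for Mki67, -0.29 for Ms4a3, -1.16 for Top2a and -0.095 for mt-Nd6. With S100a8 and S100a9 at 10% or more, 50 µM gave -0.26 for the G2/M median, -0.0022 for Bcl2, -0.48 for Bcl2a1b, -0.0038 for Ccl9, -0.070 for Kif20b and -0.0032 for Sox4, and DON gave -0.14 for Ctsg, -0.080 for Phgdh and -0.23 for Sox4. Stray RNA was subtracted as 0.5 times the Siglech-high level, with negative levels set to 0, which also removes what Siglech-high cells express. In this setting 50 µM gave medians of 0.019 (hypoxia targets), -1.42 (G2/M) and 0.67 (MHC class II). Its ratios were 0.52 for Ankrd37, 4.84 for Cd74, 0.67 for H2-Aa, -0.48 for Kif11, -0.40 for Kif20b, 0.26 for Mif, -0.83 for Mki67, 0.66 for P4ha1 and -2.67 for Top2a. In control Cd74 had 2959 CPM in members and 6255 CPM in Siglech-high cells. The ratios of Cd74 and Ankrd37 thus stand against control levels set to 0. Removing doublets gave 0.19 for Ciita (50 µM) and 0.053 for Ifitm1 (DON), and a minimum of 2000 UMIs gave 0.0010 for the DON cytokine and chemokine median.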
